A study of Homo sapiens with 2 samples.

Results

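The zinc finger genes at the end of the long arm of human chromosome 19 were described in SBC5, a long-established human line of small cell lung cancer. The cisplatin-resistant group, 1 library, came from SBC5 CPr, cells exposed stepwise to 1, 2, 4 and then 20 µg/ml of cisplatin, a drug whose platinum centre links bases of DNA. The parental group, also 1 library, came from SBC5 without that selection. Both were grown in RPMI medium with serum, and stranded libraries were made from polyadenylated RNA; the labels give no genetic change to either and do not say whether the resistant cells are a single clone. Values were FPKM, that is, sequenced fragments corrected for how long a locus is and how many fragments the library holds. With 1 library in each group no difference had a replicate check, no test was possible and no p-value is given, so every value describes these 2 libraries only.

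The 70 member loci, of 19217 in the table, were the rows whose name starts with ZNF, ZSCAN, ZFP, ZIM or ZIK and a digit, within 2 runs of neighbouring loci that end near the A1BG gene. The plus-strand run gave 39 members and the minus-strand run 31. They hold 73 zinc finger names: 6 loci join several symbols, and ZSCAN22 has a locus in each run, the minus-strand one lying opposite the annotated gene. The stretch was chosen from the log2 ratios of these same libraries, so the members' higher values in resistant cells are a description of what selected them and support nothing further. All 70 reached 1 FPKM in at least 1 library. By the GENCODE annotation, on GRCh38 (hg38), all lie on chromosome 19, in a block from 51991332 to 53159075 and a block from 55476332 to 58481230, with 2.32 Mb between them.

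These genes encode C2H2 zinc finger proteins, in which short repeated modules each hold a zinc ion and read a few bases of DNA. Most carry a KRAB domain, which binds the corepressor TRIM28, and TRIM28 in turn brings the histone methyltransferase SETDB1 and HP1 proteins to silence transposable elements and genes. The family grew by tandem duplication in primates and other mammals, and its members lie in clusters on chromosome 19. Others carry a SCAN domain, which lets proteins of this kind pair with each other.

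The promoter windows of 4 members are shown because their genes stood at opposite ends of the members' log2 ratios, ZNF814 and ZNF530 at the high end, ZNF606 and ZSCAN1 at the low end, and because their CpG content differed. Each runs from 250 bases before to 50 bases after the start site and was taken from RefSeq, build GRCh38.p14, 5′ to 3′ on the strand of the gene, with every CpG dinucleotide in capitals. ZNF814 is at chr19:57888988-57889287 on the minus strand and ZNF530 at chr19:57599635-57599934 on the plus strand. ZNF606 is at chr19:58002771-58003070 on the minus strand and ZSCAN1 at chr19:58033775-58034074 on the plus strand.
ZNF814: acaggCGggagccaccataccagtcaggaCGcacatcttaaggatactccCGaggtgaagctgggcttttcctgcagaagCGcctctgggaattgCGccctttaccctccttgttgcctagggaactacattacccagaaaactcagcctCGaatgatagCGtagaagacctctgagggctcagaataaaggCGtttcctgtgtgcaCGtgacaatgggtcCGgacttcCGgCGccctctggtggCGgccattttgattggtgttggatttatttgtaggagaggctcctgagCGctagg
ZNF530: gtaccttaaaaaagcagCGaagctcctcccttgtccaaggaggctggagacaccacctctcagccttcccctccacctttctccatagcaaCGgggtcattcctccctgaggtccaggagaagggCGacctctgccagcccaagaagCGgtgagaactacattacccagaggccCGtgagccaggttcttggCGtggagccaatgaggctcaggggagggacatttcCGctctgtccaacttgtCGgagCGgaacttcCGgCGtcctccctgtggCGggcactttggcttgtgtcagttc
ZNF606: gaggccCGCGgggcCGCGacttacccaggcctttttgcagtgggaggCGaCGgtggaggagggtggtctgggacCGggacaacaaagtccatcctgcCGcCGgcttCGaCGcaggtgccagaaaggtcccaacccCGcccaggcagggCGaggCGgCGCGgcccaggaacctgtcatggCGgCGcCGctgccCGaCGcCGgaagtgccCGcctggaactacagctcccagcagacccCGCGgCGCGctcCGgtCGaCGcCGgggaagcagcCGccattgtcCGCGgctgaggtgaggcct
ZSCAN1: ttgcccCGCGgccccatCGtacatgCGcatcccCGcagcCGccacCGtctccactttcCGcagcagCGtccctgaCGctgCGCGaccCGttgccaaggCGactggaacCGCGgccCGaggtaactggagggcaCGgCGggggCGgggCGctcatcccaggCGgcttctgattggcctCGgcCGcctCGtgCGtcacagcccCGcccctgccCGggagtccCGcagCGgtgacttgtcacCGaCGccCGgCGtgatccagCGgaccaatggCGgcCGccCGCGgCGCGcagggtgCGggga
The ZNF814 window held 14 CpG dinucleotides and the ZNF530 window 12, against 34 in ZNF606 and 42 in ZSCAN1.

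The members were mostly a little higher in resistant cells. Their median log2 ratio, taken on FPKM with 1 added to each value, resistant over parental, was 0.33, with the middle of the distribution between 0.08 and 0.46 and a full range of -0.79 to 1.40. With a pseudocount of 5 FPKM the median was 0.15. The ratio was above 0 for 57 of the 70 (81.4%), against 48.1% of all 15944 named loci compared, whose median was -0.01. Only 2 members were at least 2-fold higher, against 4.98% of named loci, and 0 were at least 2-fold lower, against 3.28%. Most members are expressed at a low level: the median was 3.89 FPKM in resistant and 2.98 FPKM in parental cells, and 40 members were under 5 FPKM in both libraries. Among named loci with a mean of 1 to 5 FPKM, 56.6% had a ratio above 0 and the median was 0.08. The 45 members in that band had a median of 0.34, and 39 of them (86.7%) were above 0. Because the rule used this contrast, nothing is read from these shares.

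**Figure D1:**
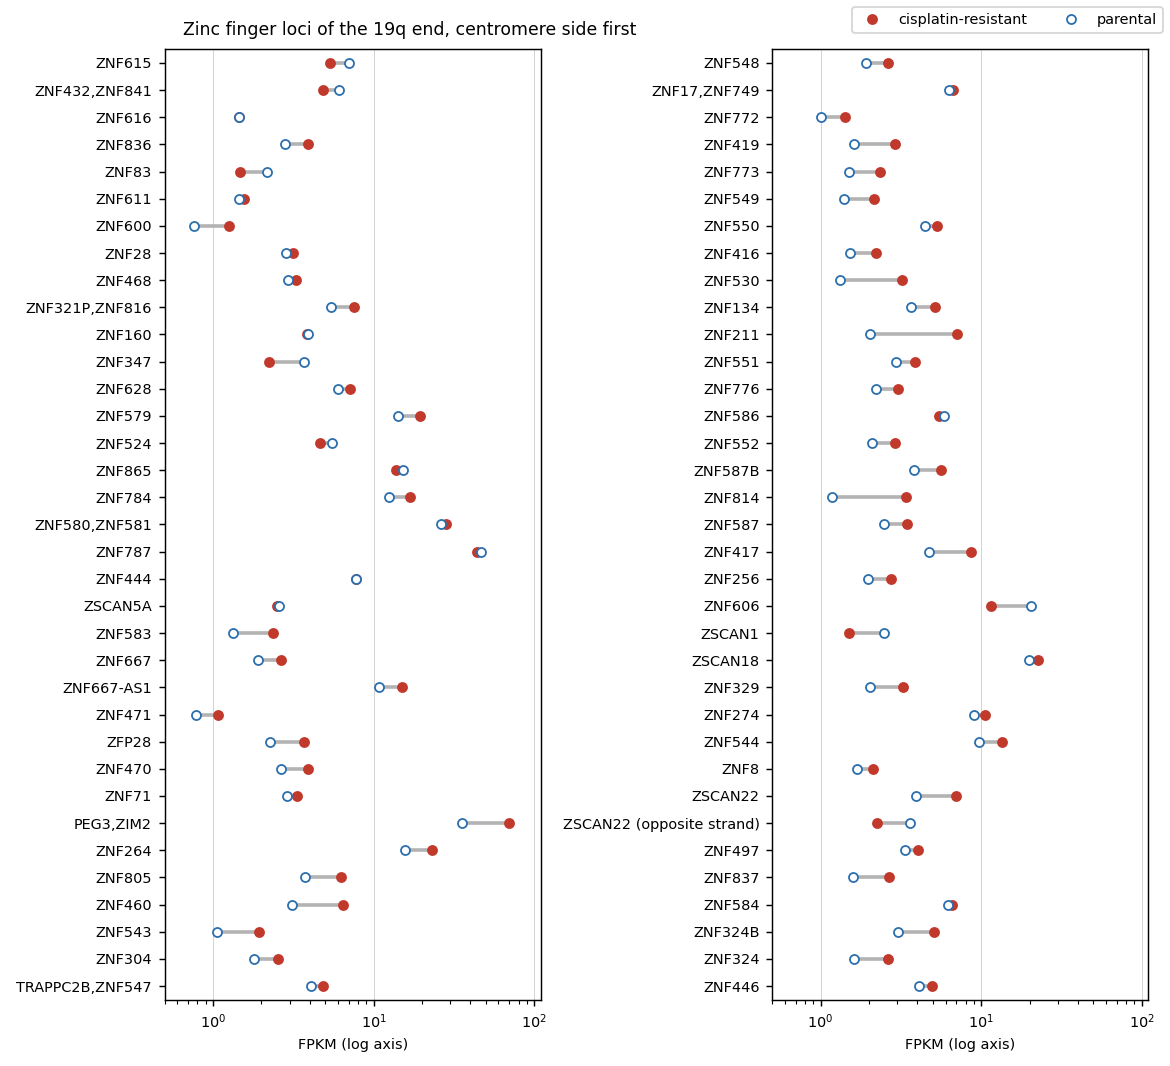
FPKM of the 70 member loci on a log axis, in chromosomal order from the centromere side, with filled red points for the resistant and open blue points for the parental library. ZNF211, ZNF814 and ZNF530 show the widest gaps toward the resistant library, and ZNF606 lies the other way, at 11.5 FPKM in resistant and 20.5 FPKM in parental cells.

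ZNF211 had 7.05 FPKM in resistant and 2.04 FPKM in parental cells, a log2 ratio of 1.40. ZNF814 had 3.42 FPKM in resistant and 1.18 FPKM in parental cells (log2 ratio 1.02). This was the pair past the 2-fold limit, and both are KRAB zinc finger genes. With a pseudocount of 5 FPKM in place of 1 neither passed (0.77 for ZNF211 and 0.45 for ZNF814), and ZNF814 stood at 0.96 once the FPKM totals of the libraries were made equal. PEG3, an imprinted gene transcribed from the paternal copy, shares its locus with ZIM2, and this joined locus had the highest level of all members, 70.2 FPKM in resistant and 35.5 FPKM in parental cells (log2 ratio 0.97). ZNF530 had 3.22 FPKM in resistant and 1.32 FPKM in parental cells, a log2 ratio of 0.86. ZNF460 had 6.49 FPKM in resistant and 3.13 FPKM in parental cells, also 0.86. All 5 had higher values in the resistant library. ZNF417, which with its near copy ZNF587 represses HERV-K proviruses, had 8.69 FPKM in resistant and 4.72 FPKM in parental cells (0.76).

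At the other end, ZNF606 had a log2 ratio of -0.79, the lowest of the members. ZNF347 had 2.23 FPKM in resistant and 3.69 FPKM in parental cells (-0.54), and ZSCAN1, a SCAN gene, had 1.50 FPKM in resistant and 2.47 FPKM in parental cells (-0.48). ZNF83 had 1.47 FPKM in resistant and 2.18 FPKM in parental cells (-0.36), and ZNF615 had 5.37 FPKM in resistant and 6.99 FPKM in parental cells (-0.33). These 5 lay below their parental values without reaching the 2-fold limit. The opposite-strand ZSCAN22 locus was also lower, at 2.24 FPKM in resistant and 3.59 FPKM in parental cells (-0.50), while the locus on the gene's own strand had 6.98 FPKM in resistant and 3.92 FPKM in parental cells (0.70).

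The other most abundant members had smaller ratios. ZNF787 had 44.2 FPKM in resistant and 46.4 FPKM in parental cells (-0.07), the locus joining ZNF580 and ZNF581 had 28.2 FPKM in resistant and 26.4 FPKM in parental cells (0.09), and ZSCAN18, a SCAN gene reported as methylated in digestive tract tumours, had 22.7 FPKM in resistant and 19.8 FPKM in parental cells (0.19). ZNF264 had 23.0 FPKM in resistant and 15.7 FPKM in parental cells (0.52), and ZNF579 had 19.6 FPKM in resistant and 14.3 FPKM in parental cells (0.43). ZNF264 and ZNF579 had the highest ratios of these 5 loci, and neither reached 2-fold.

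Members listed for a known role had log2 ratios between 0 and 1. ZNF274, which carries both KRAB and SCAN domains and helps place SETDB1 and H3K9 methylation over the coding ends of other zinc finger genes, had 10.6 FPKM in resistant and 8.98 FPKM in parental cells (0.21). ZNF304, which in colorectal cancer cells recruits a TRIM28-containing complex to tumour suppressor promoters, had 2.55 FPKM in resistant and 1.81 FPKM in parental cells (0.34). ZNF587 had 3.45 FPKM in resistant and 2.47 FPKM in parental cells (0.36). ZFP28, which carries more than a single KRAB domain, had 3.70 FPKM in resistant and 2.25 FPKM in parental cells (0.53). ZNF667 had 2.67 FPKM in resistant and 1.92 FPKM in parental cells (0.33), and its antisense RNA ZNF667-AS1 had 15.0 FPKM in resistant and 10.8 FPKM in parental cells (0.44). The libraries were stranded, but how reads were counted is not stated, so ZNF667 and ZNF667-AS1 may share reads where they overlap. ZNF8 had 2.12 FPKM in resistant and 1.69 FPKM in parental cells (0.21), ZNF471 had 1.07 FPKM in resistant and 0.786 FPKM in parental cells (0.21), and ZNF444, a SCAN gene, had 7.83 FPKM in resistant and 7.72 FPKM in parental cells (0.02).

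Further members of known role had log2 ratios of 0.41 for ZNF134 (5.16 FPKM in resistant and 3.65 FPKM in parental cells), 0.16 for ZNF71 (3.35 FPKM in resistant and 2.89 FPKM in parental cells) and 0.48 for ZNF324 (2.63 FPKM in resistant and 1.61 FPKM in parental cells). ZNF671, ZNF154, ZNF132, ZNF135, ZNF582, ZNF418, ZIM3, ZIK1 and ZSCAN4 were not analysed here.

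Along the chromosome the higher values were not evenly spread. The 12 minus-strand loci from ZNF615 to ZNF347, at 52 to 53 Mb, had a median log2 ratio of 0.03, with 7 above 0 and an FPKM sum of 40.0 in resistant and 40.6 in parental cells. The 9 loci from ZNF628 to ZSCAN5A had a median of 0.02, with 5 above 0 and sums of 144.9 FPKM in resistant and 136.6 FPKM in parental cells. The 49 loci from ZNF583 to ZNF446 had a median of 0.36, with 45 above 0 (91.8%), 33 of them between 0.2 and 0.6, and sums of 327.9 FPKM in resistant and 234.1 FPKM in parental cells. These divisions were drawn after the values were seen, so no test was made of the differences between them. The first run has no plus-strand members, because the plus-strand range begins beyond it; the 9 plus-strand zinc finger loci at 52 to 54 Mb that lie outside it had a median log2 ratio of -0.00, with 4 of 9 above 0.

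**Figure D2:**
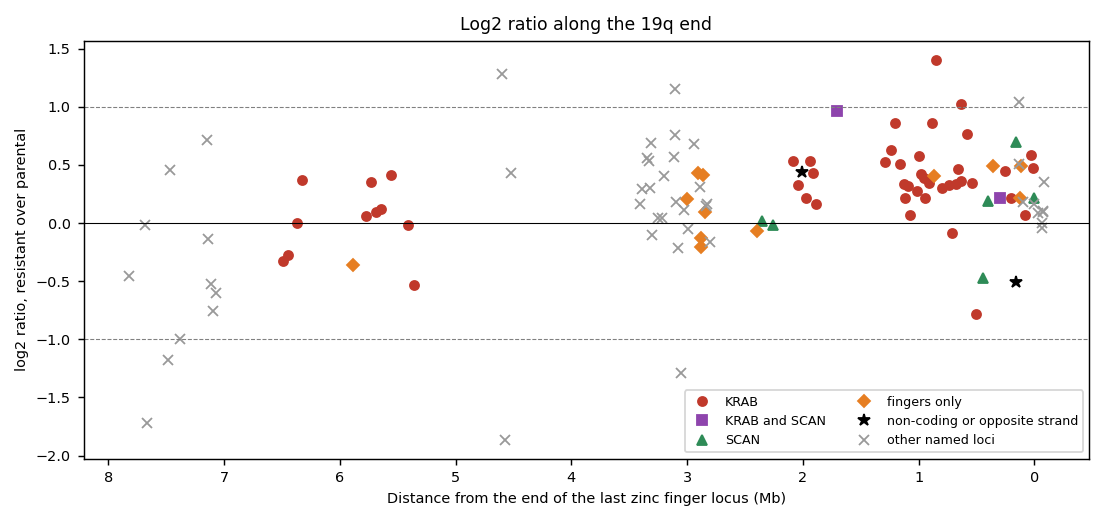
Log2 ratio, resistant over parental, against distance in Mb from the end of the last zinc finger locus, with coloured symbols for members by protein architecture. Grey crosses are other named loci of the same runs that have an annotated position, without the SHC2 loci of the short arm. Members within about 2 Mb of the end lie mostly above 0, and dashed lines mark the 2-fold limit.

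At the ends of the runs, the first and last members in the numbering were ZNF628 (log2 ratio 0.21) and ZNF446 (0.21) on the plus strand. On the minus strand they were ZNF615 (-0.33) and ZNF837 (0.49). The previous zinc finger loci in the numbering were ZNF331, with 6.72 FPKM in resistant and 5.07 FPKM in parental cells (0.35), and ZNF296, with 2.86 FPKM in resistant and 2.06 FPKM in parental cells (0.33). Both ratios lie near the members' median of 0.33. ZNF296 starts at 45071500, far from the first minus-strand member, ZNF615, at 51991332. ZNF331 was the highest of the 9 plus-strand loci at 52 to 54 Mb, whose median was -0.00. The next zinc finger loci after the runs in the numbering were ZNF77, with 6.25 FPKM in resistant and 4.28 FPKM in parental cells (0.46), and ZNF414, with 10.3 FPKM in resistant and 1.04 FPKM in parental cells (2.48), both genes of the short arm.

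Zinc finger loci elsewhere had medians nearer to 0. The 118 on the rest of chromosome 19 had a median log2 ratio of 0.08, with 76 above 0 (64.4%), and the 367 on other chromosomes had a median of -0.04, with 165 above 0 (45.0%). The 53 other named loci in the same runs had a median of 0.16, with 36 above 0. Of these loci, 5 were past the 2-fold limit upward and 4 past it downward, against 4.98% and 3.28% of all named loci. The 53 include loci named SHC2 (0.82, 1.43 and 1.46), a gene of the short arm that ends the numbered run and is no neighbour of the members. From ZNF583 onward only 11 other named loci were compared, with a median of 0.16 and 10 above 0, so the neighbourhood beyond the zinc finger genes is thinly sampled there. No difference between these sets was tested.

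**Figure D3:**
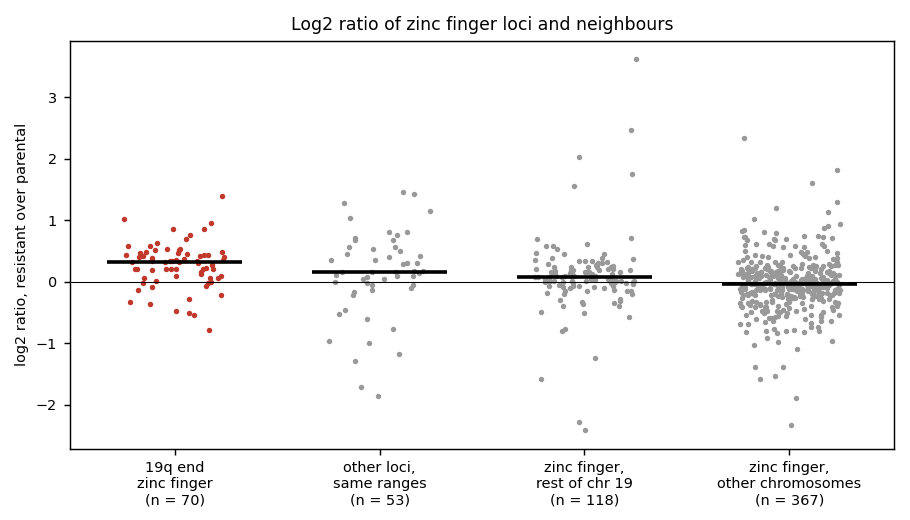
Log2 ratio of each locus in 4 sets, the members in red and the others in grey, with a black bar at each median. The bars stand at 0.33 for the members, 0.16 for other loci of the same runs, 0.08 for zinc finger loci on the rest of chromosome 19 and -0.04 for those on other chromosomes.

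Several neighbours at the chromosome end were close to 0. TRIM28 itself, which lies just beyond the last member, had 188.4 FPKM in resistant and 188.2 FPKM in parental cells (0.00). UBE2M, a NEDD8-conjugating enzyme, had 74.4 FPKM in resistant and 69.2 FPKM in parental cells (0.10), CHMP2A, an ESCRT-III subunit, had 112 FPKM in resistant and 116 FPKM in parental cells (-0.05), and ZBTB45 had 9.99 FPKM in resistant and 9.37 FPKM in parental cells (0.08). MZF1, a SCAN zinc finger gene outside the name rule, had 1.61 FPKM in resistant and 1.04 FPKM in parental cells (0.35). A1BG-AS1, the antisense RNA of A1BG, was past the 2-fold limit at 12.3 FPKM in resistant and 5.44 FPKM in parental cells (1.04), and A1BG, which encodes a plasma glycoprotein, had 17.2 FPKM in resistant and 11.8 FPKM in parental cells (0.51).

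By architecture, read from the GENCODE coding sequence by script, 48 members encode KRAB proteins without SCAN, with a median log2 ratio of 0.34 and 42 above 0. The 6 SCAN-only loci had a median of 0.10, and the 12 with fingers only 0.21. ZNF274 carries both domains in a single protein, while the joined PEG3 and ZIM2 locus has SCAN in PEG3 and KRAB in ZIM2. Position and architecture go together here: the 9 loci from ZNF628 to ZSCAN5A hold no KRAB gene. Within the KRAB class, the 11 loci of the 52 to 53 Mb run had a median of 0.06 with 7 above 0, and the 37 from ZNF583 to ZNF446 had 0.36 with 35 above 0. In that last stretch the 4 fingers-only loci had a median of 0.45 with 4 above 0. The 4 SCAN-only loci there had 0.20 with 3 above 0. Among these, the KRAB median was thus not the highest, unlike the medians over all positions. The number of fingers had a Spearman correlation of 0.01 with the log2 ratio across 68 loci and 0.23 across the 47 from ZNF583 to ZNF446, and mean FPKM had -0.06 across 70. Genes are not independent replicates, and the finger count and the ratio come from separate sources.

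In all, 5 pairs of members have coding sequences at least 90% identical, among them ZNF417 and ZNF587 (99.1%), ZNF419 and ZNF773 (94.7%), ZNF600 and ZNF611 (94.3%), ZNF324 and ZNF324B (93.0%), and ZNF587B and ZNF814 (91.6%). Reads from such copies may have been split or placed on either, so the values of these 10 genes, ZNF814 and ZNF417 included, are uncertain. Without them 1 member was at least 2-fold higher.

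Member promoters held more CpGs than the full set of windows. Members have 1 window per gene here, while the full set can hold several per gene. CpG counts of other zinc finger genes were not compared. The 63 promoter windows found had a median of 24 CpG dinucleotides (range 11 to 42), against 14 in all 35116 windows of the RefSeq table. Among loci with a window, fewer CpGs went with higher log2 ratios. The Spearman correlation was -0.40 across 60 loci and -0.32 across the 42 from ZNF583 to ZNF446. Some of the highest members had no window and are left out, namely ZNF211 (1.40), the PEG3 and ZIM2 locus (0.97) and ZNF417 (0.76). The loci share a library pair and differ in base composition and position, and the windows printed above were picked from the extremes, so they illustrate the relation without adding to it.

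**Figure D4:**
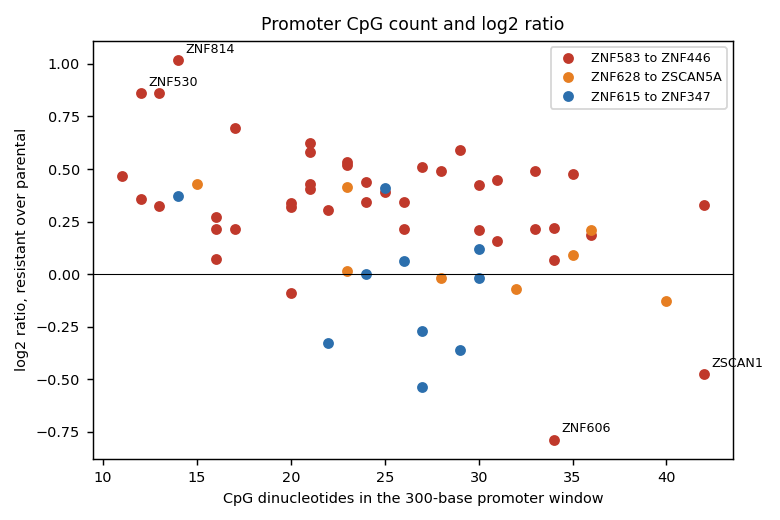
Number of CpG dinucleotides in the 300-base promoter window against the log2 ratio for the 60 members with a window, coloured by position along the chromosome. ZNF211, the PEG3 and ZIM2 locus and ZNF417 had no window and are not shown. ZNF814 and ZNF530 lie at 14 and 12 CpGs above 0.8, while ZNF606 and ZSCAN1 lie at 34 and 42 CpGs below 0.

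Motif letters were searched on both strands of these windows, and no motif's letters contain those of another. The ETS core CCGGAAG was in 60.3% of member windows, against 10.3% of all windows, 38.8% of windows of other zinc finger genes on chromosome 19 and 32.6% of those on other chromosomes. The SP1 core GGGCGG was in 74.6% of member windows, against 45.0% of all, 63.2% of other zinc finger windows on chromosome 19 and 60.0% of those on other chromosomes. The NFY core ATTGG was in 55.6%, against 34.6%, 49.8% and 40.7% of the same sets. The ZNF143 core TACANNNCC, added after the printed windows were read, was in 34.9%, against 9.40% of all, 28.4% of other zinc finger windows on chromosome 19 and 16.5% of those on other chromosomes. YY1 (AAGATGGC), CREB (TGACGTCA) and AP-1 (TGANTCA) letters were in 4.76%, 3.17% and 3.17% of member windows, against 2.89%, 1.85% and 7.71% of all and 6.47%, 4.48% and 7.46% of other zinc finger windows on chromosome 19. No difference between these sets was tested. A match is a run of letters and says nothing of binding.

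A list of 50 genes held the machinery that KRAB proteins recruit and enzymes that add or remove methylation of DNA and H3K9. TET1, TET2, TET3, KDM4A, KDM4B and KDM4C remove these marks, and the counts below pool them with the rest. Their log2 ratios ran from -0.42 (KDM4B) to 0.53 (TET3). Of the 50 genes, 46 were compared, each by its most abundant locus. By that locus none was at least 2-fold higher or lower, against 4.98% and 3.28% of all named loci. Above 0 were 16 and below 30, and the median log2 ratio was -0.09. Of all named loci 48.1% were above 0, and 43.9% with a filter of 5 FPKM. SETDB1 had 36.7 FPKM in resistant and 43.0 FPKM in parental cells (-0.22), and its partner ATF7IP was the highest of the list at 13.8 FPKM in resistant and 8.88 FPKM in parental cells (0.59). CBX5, which encodes HP1 alpha, had 22.3 FPKM in resistant and 26.8 FPKM in parental cells (-0.25), and CBX1, for HP1 beta, was the lowest at 94.0 FPKM in resistant and 150.9 FPKM in parental cells (-0.68). DNMT1, the maintenance DNA methyltransferase, had 49.2 FPKM in resistant and 57.7 FPKM in parental cells (-0.22), and UHRF1, which brings it to replicated DNA, had 75.5 FPKM in resistant and 74.1 FPKM in parental cells (0.03). Less abundant loci of 2 listed genes were past the limit, MPHOSPH8 with 2.02 FPKM in resistant and 0.312 FPKM in parental cells (1.20), and ATRX with 2.42 FPKM in resistant and 6.67 FPKM in parental cells (-1.17). Transcript level says nothing of protein activity.

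**Figure D5:**
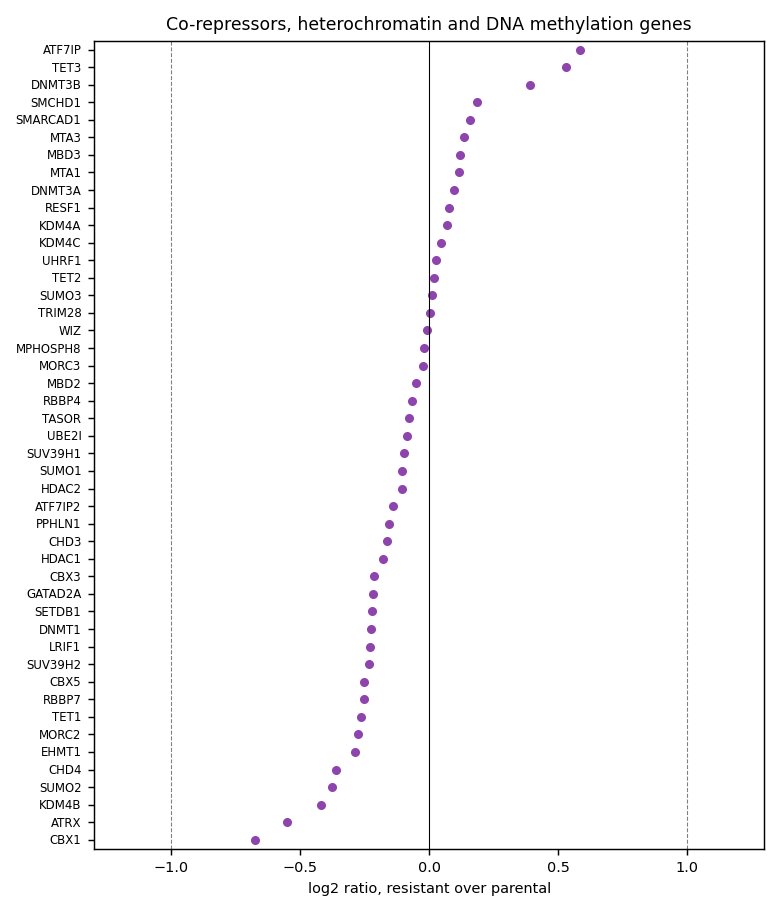
Log2 ratio, resistant over parental, of the 46 listed corepressor, heterochromatin and methylation genes, sorted, each at its most abundant locus. Enzymes that remove methylation are included, and dashed lines mark the 2-fold limit. These loci lie between -0.68 (CBX1) and 0.59 (ATF7IP), and TRIM28 is at 0.00.

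The libraries' totals were 1081047 FPKM in resistant and 1019555 FPKM in parental cells. The number of fragments behind a value is unknown. Among the members, 8 ratios of resistant to parental FPKM, divided by a factor of 0.9964 common to low loci, equalled a ratio of whole numbers up to 60 within a tolerance of 1e-05, the smallest being 5 to 3 for ZNF837 and 11 to 6 for ZNF543, which could rest on few fragments. Of the line's markers, the synaptic vesicle gene SYP had 8.62 FPKM in resistant and 8.56 FPKM in parental cells, NCAM1 had 1.64 FPKM in resistant and 0.82 FPKM in parental cells, KRT8, an epithelial keratin, had 2.36 FPKM in resistant and 2.09 FPKM in parental cells, and YAP1, which marks a variant subtype of small cell lung cancer, had 84.7 FPKM in resistant and 76.6 FPKM in parental cells. COL1A1, a fibroblast marker, had 3.85 FPKM in resistant and 2.34 FPKM in parental cells, and its part in the members' values was not tested. NEUROD1, POU2F3, CHGA, INSM1, EPCAM, KRT18, PTPRC and PECAM1 were not analysed here.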

How the data were processed

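Polyadenylated RNA from 1 cisplatin-resistant and 1 parental SBC5 library was compared. The authors deposited a table of FPKM per locus; TopHat2, with no version, and hg38 are named per the submitters' processing notes, while which program and gene models produced the FPKM is not given in the sources used here. Groups and the match of columns to libraries follow the labels, and 0 columns had no match.

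A locus was compared when 1 or both libraries gave it 1 FPKM or more. The log2 ratio, resistant over parental, used a pseudocount of 1 FPKM, which understates changes of low genes. A fixed size of at least 2-fold stood in place of a test. The members and lists were chosen with earlier results of these data known. Named genes were every member past 2-fold, the 6 highest and 6 lowest ratios, the 6 most abundant, genes of known role, neighbours, the rows at the range ends and 6 corepressor genes. CBX1, the neighbours past 2-fold other than A1BG-AS1, PEG3-AS1, ZNF667-AS1 and the pieces outside the runs were chosen after their values were seen. Some genes that the rule or the marker list names are not reported here.

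Positions and coding sequences came from GENCODE release 29 on the same build, and promoters from RefSeq GRCh38.p14. KRAB and SCAN domains and fingers were found by pattern, so divergent domains can be missed. Alternatives were pseudocounts of 0.1 and 5, 2 other scalings, other filters, a 4-fold limit and other treatments of repeated names; summing all loci of a name and leaving out near-identical members were chosen after seeing the data. Scripts were tested on simulated data, with changes planted only at loci of 10 FPKM or more in the parental library. Only 12 members reached 10 FPKM in either library, so that check did not cover the level of most members. Depth is unknown, so no interval is given. Python 3.11.15, pandas 2.3.3, NumPy 2.4.6, SciPy 1.17.1, Biopython 1.88 and matplotlib 3.10.9 were used.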

Additional observations from a re-analysis of the deposited data

How the results depend on the processing

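Under the alternatives run, the median log2 ratio of the members stayed above 0 and was 0.15 with a pseudocount of 5 FPKM, as did the medians from ZNF583 to ZNF446 (0.16), of the KRAB (0.15), SCAN (0.068) and fingers-only (0.13) classes. The members at least 2-fold higher numbered 4 with a pseudocount of 0.1 FPKM, adding ZNF460 and ZNF530, 0 with a pseudocount of 5 FPKM, 1 with an equal sum of FPKM, 1 with a filter of 5 FPKM, 0 with a 4-fold limit, 1 without near-identical members and 3 with all loci of a name summed. With an equal sum of FPKM the median of all named loci moved to -0.09, the share of named loci above 0 to 39.2%, the neighbours' median to 0.082, the corepressor median to -0.17 and the SCAN median to 0.025, and 4 members changed sign. A filter of 5 FPKM left 30 members, 23 above 0, and 17 of 19 from ZNF583 to ZNF446; the SCAN median was 0.19. The other named loci of the same runs at least 2-fold higher numbered 8 with a pseudocount of 0.1 FPKM, 1 with 5 FPKM, 3 with the filter of 5 FPKM and 0 with a 4-fold limit; those at least 2-fold lower numbered 7, 0 and 0 with the pseudocount of 0.1 FPKM, that of 5 FPKM and the 4-fold limit. Some of these moves follow from the settings. A larger pseudocount draws every ratio toward 0, and a smaller 1 does the reverse. An equal sum lowers every ratio, because the resistant total was the larger. The filter leaves fewer loci, and the higher limit passes fewer. No other cause was tested. No paired analysis was possible because each group had 1 library and the labels carry no shared replicate number. Low expression limits the members: 40 lay under 5 FPKM in both libraries, and depth is unknown.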

Other observations

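Among the 53 other named loci of the same runs, 9 were past the 2-fold limit, and most of them lay toward the centromere. CACNG7, which encodes an AMPA receptor auxiliary subunit, had 1.19 FPKM in resistant and 6.95 FPKM in parental cells (log2 ratio -1.86). The kallikrein genes KLK1 and KLK8 had 1.11 and 1.10 FPKM in resistant cells, against 5.93 and 3.77 FPKM in parental cells (-1.72 and -1.18). SHISA7 had 2.70 FPKM in resistant and 8.03 FPKM in parental cells (-1.29), and TMEM238 had 80.9 FPKM in resistant and 35.8 FPKM in parental cells (1.15). A1BG-AS1 (1.04) is given above, and 2 loci named SHC2, a gene of the short arm that stands at the end of the numbered run, had 1.43 and 1.46.

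PEG3-AS1, the antisense RNA of PEG3, had 11.2 FPKM in resistant and 5.97 FPKM in parental cells (0.81), beside 0.97 for the joined PEG3 and ZIM2 locus.

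Loci that carry a member's name outside the 2 runs had a median log2 ratio of 0.45 over 24. They are called pieces here because they may be parts left by assembly, which was not tested. Of these, 18 were above 0, against 48.1% of all named loci, and 6 below, the lowest a ZNF524 piece (-0.76). At least 2-fold higher were 4 and at least 2-fold lower 0, against 4.98% and 3.28% of named loci. For ZNF274 such a piece had 9.97 FPKM in resistant and 2.00 FPKM in parental cells (1.87), against 0.21 at the member locus. For ZNF606 a piece had 3.27 FPKM in resistant and 0.657 FPKM in parental cells (1.37), against -0.79 at the member locus. A piece of ZNF583 had 4.22 FPKM in resistant and 1.41 FPKM in parental cells (1.11). A piece of ZNF814 had 2.93 FPKM in resistant and 0.490 FPKM in parental cells (1.40), against 1.02 at the member locus.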
